A study of Caenorhabditis elegans with 4 samples.

Results

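Tubulin and centrosome genes were examined in early embryos of Caenorhabditis elegans depleted of SIG-7. The set holds the genes of the alpha- and beta-tubulins of the embryo, of gamma-tubulin and of the proteins that build centrioles and the material around them. Of 10 listed genes (tba-1, tba-2, tbb-1, tbb-2, tbg-1, zyg-1, spd-2, spd-5, sas-4 and sas-6), 9 were matched by exact gene name among the 37812 rows of the authors' deposited gene table. No row matched tba-1 by name, and it was not analysed here. All 9 matched genes were tested by the authors, and their FPKM (fragments counted per kilobase of transcript and scaled to the mapped total) was compared between the groups.

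The samples were 4 libraries of total RNA from wild-type (strain N2) early embryos, a mixture from the 1-cell to the 350-cell stage recovered by bleaching adults that had been fed for 72 h from synchronized first-stage larvae. The control group was 2 libraries of RNAi with L4440, the empty RNAi vector, and the other group was 2 libraries of RNAi against sig-7, the gene of a nuclear cyclophilin that also carries an RNA-binding motif. Both groups carried the same genotype and differed in the RNAi target. Values are given as 1 pooled FPKM per group, so the spread between libraries and the depth of each library are unknown, and replicate error enters only through the deposited q-value. Whether the libraries of a group were grown separately is not stated in the labels, so that error may be technical. "Rose" and "fell" are used where the q-value of the authors' deposited table was under 0.05, and folds are ratios of the pair of deposited FPKM values. Whole embryos of mixed stages were measured, so fewer cells of a type and less RNA per cell cannot be told apart. sig-7 itself had 39.8 FPKM in control embryos and 8.72 FPKM after its own RNAi, which left 21.9% of the control level.

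Microtubules are polymers of alpha- and beta-tubulin pairs, and in the early worm embryo they form the large spindles of the rapid cleavage divisions. They grow from centrosomes, each a pair of centrioles surrounded by pericentriolar material in which gamma-tubulin complexes start new microtubules. In this species SPD-2 recruits the kinase ZYG-1 to the centriole, ZYG-1 brings in SAS-6 to build the central tube of the daughter centriole, and SAS-4 then allows the outer wall to form. SPD-2 and SPD-5 together make the scaffold of the pericentriolar material. The embryo inherits much of this machinery, as RNA and protein, from the mother.

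Of the 9 tested members, 4 rose (tba-2, tbb-2, tbg-1 and sas-6), 0 fell and 5 did not pass the test. Rises were called in 11.2% of all tested genes and falls in 17.3%. Among the 5468 tested genes with a mean of at least 10 FPKM, the range in which all 9 members lie, 20.1% rose and 11.6% fell. At q under 0.01, 3 members rose and 0 fell, against 6.72% and 13.1% of all tested genes. By value, 8 of the 9 members were higher in sig-7 RNAi and 1 was lower. With 1 FPKM added to each value as a pseudocount, the log2 ratio (knockdown over control) had a median of 0.68 over the members, against -0.030 over all tested genes and 0.28 over those at 10 FPKM or more. The members' summed FPKM went from 1777 to 2952, which was 0.386% of all FPKM in the control and 0.380% in sig-7 RNAi.

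The size of these rises, and for tbg-1 the direction, depends on how the groups are scaled. The total FPKM of all rows was 1.69-fold higher in sig-7 RNAi, so scaling both groups to the same total lowers every log2 ratio by 0.75. On that scale 4 of the 9 members stayed above 0 (sas-6 at 0.10, tbb-2 at 0.093, spd-5 at 0.030 and tba-2 at 0.017), and tbg-1 went to -0.053. With the 10 highest rows left out of the totals the shift was 0.47, all 4 members that rose kept a positive log2 ratio, and sas-6 stood at 0.38. The order of the members and the ratios between them are the same under any common scaling.

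**Figure D1:**
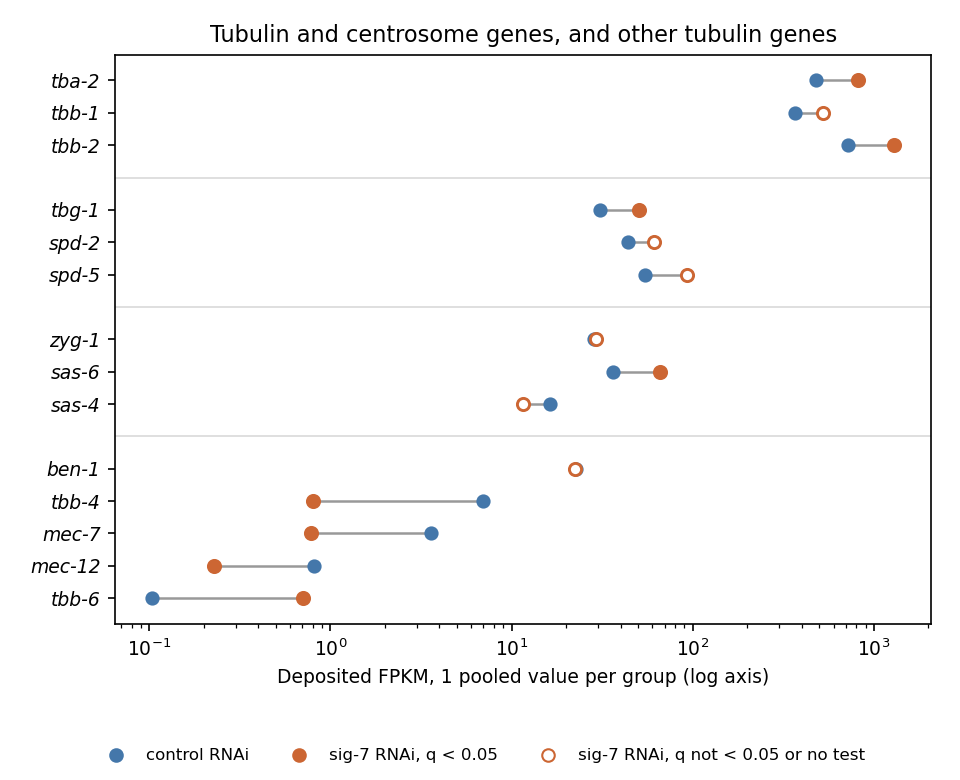
Deposited FPKM (log axis, 1 pooled value per group, no error available) of the 9 members and of 5 other tubulin genes above 0 in both groups, in control RNAi (blue) and sig-7 RNAi (orange; filled where q was under 0.05). The alpha- and beta-tubulin members lie above 350 FPKM and move right, as do tbg-1 and sas-6 at lower levels. Values of sas-4, tbb-4, mec-7 and mec-12 move left.

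The alpha- and beta-tubulin genes were by far the most abundant members. tbb-2, which encodes one of a pair of near-identical beta-tubulins of the embryo (chromosome III, 4016045 to 4017601 on ce10), had 719.7 FPKM in control embryos and 1295 FPKM after sig-7 RNAi. The level was 1.80-fold higher, with q = 0.000635 in the authors' deposited table. tba-2, which encodes an alpha-tubulin of the embryo (chromosome I, 12964803 to 12966252), was at 481.3 and 821.4 FPKM, 1.71-fold higher, with q = 0.00151 in the authors' deposited table. tbb-1, the partner of tbb-2, was at 365.8 and 524.3 FPKM, a ratio of 1.43, and did not pass the test (q = 0.758 in the authors' deposited table). Among the 10703 tested genes ordered by FPKM, tbb-2 stood at position 57 in the control and 53 in sig-7 RNAi, tba-2 at 86 and 80, and tbb-1 at 113 and 127. The beta-tubulin pair thus kept its order, and tbb-2 was 1.97 times tbb-1 in the control and 2.47 times in sig-7 RNAi. That difference was not tested, since the pooled values carry no spread. The ratio of tba-2 to tbb-2 moved less, from 0.669 in the control to 0.634 in sig-7 RNAi. With tba-1 unmatched and tbb-1 left out, it does not give alpha-tubulin over beta-tubulin as a whole. The beta-tubulin genes share long stretches of coding sequence, and no source used here says how reads that match both copies were divided. The split between tbb-1 and tbb-2 is thus uncertain, and so are both ratios above.

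The 3 members of the pericentriolar material, tbg-1, spd-5 and spd-2, were higher by value, and tbg-1 passed the test. tbg-1, which encodes gamma-tubulin (chromosome III, 9626593 to 9629070), had 30.96 FPKM in control embryos and 50.3 FPKM after sig-7 RNAi. The rise was 1.63-fold with q = 0.0116 in the authors' deposited table, and its call was lost at a threshold of 0.01. spd-5, which encodes the main scaffold protein of the pericentriolar material, was at 54.4 and 93.6 FPKM. Its ratio of 1.72 was above that of tbg-1, yet q was 0.772 in the authors' deposited table. spd-2, which encodes the coiled-coil protein needed for both centriole duplication and pericentriolar material (chromosome I, 8967088 to 8970064), was at 43.8 and 61.0 FPKM. With a ratio of 1.39 it did not pass the test (q = 0.0714 in the authors' deposited table). At equal total FPKM spd-2 stood at -0.28 on the log2 scale, below 0, as did tbb-1 at -0.24.

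Of the 3 other members, which act in centriole assembly, sas-6 rose, while zyg-1 and sas-4 did not pass the test. sas-6, which encodes the cartwheel protein of the centriole (chromosome IV, 13786978 to 13788684), had 36.4 FPKM in control embryos and 65.8 FPKM after sig-7 RNAi, the largest ratio among the members at 1.81 (q = 0.000984 in the authors' deposited table). zyg-1, which encodes the kinase that starts centriole duplication (chromosome II, 5649756 to 5654209), was at 28.5 and 29.4 FPKM, a ratio of 1.03, with q = 1.00 in the authors' deposited table. sas-4, which encodes a centriole wall protein (chromosome III, 8314504 to 8318509), was the only member with a lower value in sig-7 RNAi. It was at 16.3 and 11.5 FPKM, 1.42-fold lower, and did not pass the test over all genes (q = 0.101 in the authors' deposited table). Relative to each other, sas-6 was 2.23 times sas-4 in the control and 5.71 times in sig-7 RNAi, and 1.28 and 2.24 times zyg-1. These ratios do not depend on a common scaling of the groups, and their change could not be tested on pooled values. In the order of tested genes, sas-6 moved up from position 2111 to 1344 and tbg-1 from 2552 to 1812, while sas-4 moved down from 4389 to 4951 and zyg-1 from 2780 to 2909.

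tbb-1 and spd-5, the 2 members with a ratio of 1.43 or more that did not pass, were tested within very large loci. The deposited locus of tbb-1 (chromosome III, 10732174 to 12052193) is 1320020 bp long and holds 286 gene rows, and that of spd-5 (chromosome I, 4573662 to 5262993) is 689332 bp long and holds 177. The loci of the other 7 members hold 1 row each, apart from that of zyg-1, which also holds the collagen gene bli-2. In loci of 10 or more rows, 2.00% of tested genes were called in either direction, against 35.5% in loci with fewer rows and 28.4% over all tested genes. The gap was wider among genes of like level and ratio. At 10 FPKM or more and with a log2 ratio of 0.7 to 0.9 in size, 3 of 146 genes in crowded loci were called, and 504 of 550 in the others. Among genes at 10 FPKM or more, 0.345% rose in crowded loci and 25.4% rose in the others. For tbb-1 and spd-5 a missed threshold does not show that the level was the same in both groups. Of the 7 members in small loci, 4 rose and 0 fell.

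**Figure D2:**
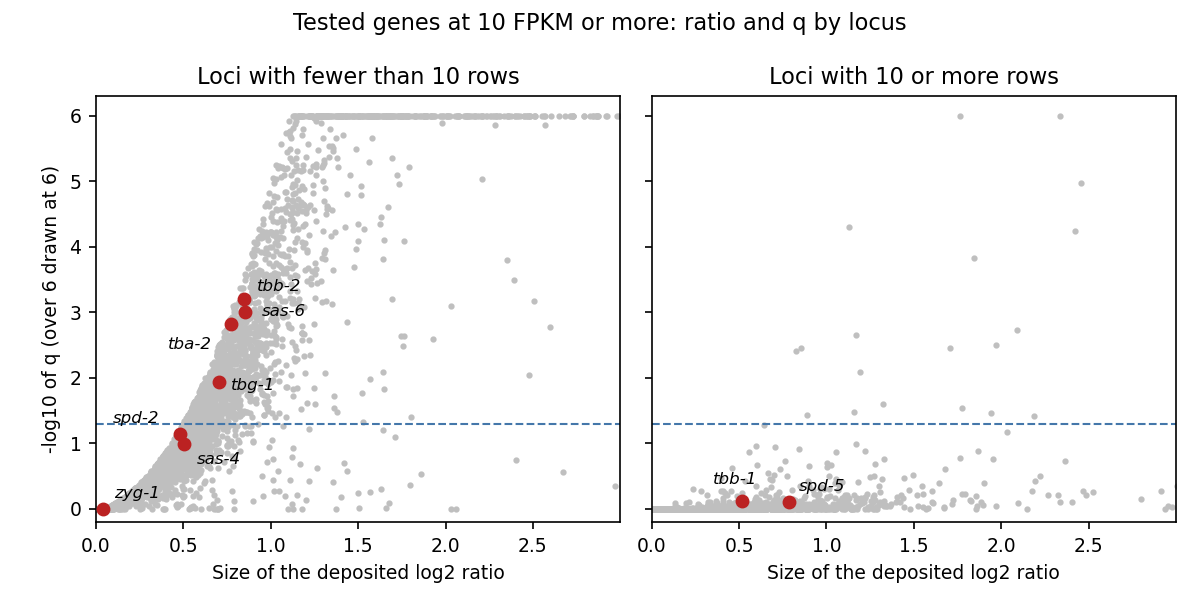
Size of the log2 ratio against -log10 of the deposited q for tested genes at 10 FPKM or more that are above 0 in both groups (grey), in loci of fewer than 10 rows (left) and of 10 or more rows (right), with the members in red and q = 0.05 as a dashed line; values over 6 are drawn at 6, and ratios over 3 are not drawn. spd-5 has a ratio between those of tba-2 and tbb-2, yet lies near 0 with the other genes of crowded loci.

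Each of the 9 members had 1 isoform and 1 TSS group (isoforms that share a transcription start site) in the other deposited tables, with the same FPKM values as in the gene table. The same 4 members passed q under 0.05 in each of those tables, in which 27.1% of tested isoforms and 27.9% of tested TSS groups were called in either direction. The deposited locus of all 7 members in small loci equalled in length the annotated span from start codon to stop codon of one of their transcripts (WBcel235, lengths only). Their gene models thus held no untranslated regions, and their FPKM stands for the coding part.

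The other tubulin genes, several of which serve sensory neurons, were at far lower levels, and 3 of these neuronal genes fell. Of 11 other alpha- and beta-tubulin genes, 5 were tested, of which 3 fell (60%) and 1 rose (20%). Over all tested genes, 17.3% fell and 11.2% rose, and the difference was not tested. The median log2 ratio of the 5 genes was -0.56 on the scale with a pseudocount of 1 FPKM. tbb-4, which encodes a beta-tubulin of ciliated sensory neurons, had 6.98 FPKM in control embryos and 0.805 FPKM after sig-7 RNAi, a fall of 8.67-fold (q = 3.46e-12 in the authors' deposited table). mec-7, which encodes the beta-tubulin of the touch receptor neurons, went from 3.57 to 0.783 FPKM, 4.57-fold lower, with q = 9.28e-06 in the authors' deposited table. mec-12, its alpha-tubulin partner, was 3.57-fold lower, from 0.813 to 0.228 FPKM, with q = 0.0394 in the authors' deposited table. Against these falls, tbb-6, a divergent beta-tubulin gene, rose from 0.104 to 0.710 FPKM (q = 0.0205 in the authors' deposited table), so that both values lie under 1 FPKM. At equal total FPKM tbb-6 kept a positive log2 ratio of 2.02. The 3 falls could only grow on that scale, since it lowers every log2 ratio.

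The remaining 7 other tubulins gave no call. ben-1, the beta-tubulin gene known as the target of benzimidazole drugs, was at 22.7 and 22.5 FPKM, but its row is marked as failed and carries no test. tba-7 shares its row with T28D6.15 in the same locus as tbb-1 and is listed at 0 in the control and at 2.18 FPKM in sig-7 RNAi (q = 0.724 in the authors' deposited table). tba-4, tba-6 and tba-9 were not tested, with control values of 0.333, 0.109 and 0.202 FPKM and values of 0.190, 0.0169 and 0.0551 FPKM in sig-7 RNAi. tba-5 is listed at 0 in the control and at 0.0999 FPKM in sig-7 RNAi, and tba-8 at 0.0268 FPKM and 0. The 11 genes together held 2.18% of the summed FPKM of these genes and the 3 alpha- and beta-tubulin members in the control, and 1.03% in sig-7 RNAi. tbb-2 relative to tbb-4 went from 103.1 to 1608, a change of 15.6-fold that no common scaling alters.

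Most of the neuron and cilium markers listed were low in these embryos. Of 10 such markers, 7 were tested, 1 fell (osm-5, an intraflagellar transport gene, from 0.540 to 0.0959 FPKM) and 0 rose. The share that fell, 14.3%, is below the 17.3% of all tested genes, and the median log2 ratio was -0.49. Their summed FPKM was 97.7 in the control and 92.5 in sig-7 RNAi, most of it from snb-1 and unc-119. By value, snb-1 was higher (57.6 to 68.6 FPKM) and unc-119, in a crowded locus, was lower (33.9 to 21.0 FPKM). Neither passed the test. tbb-4, mec-7 and osm-5 lie on the X chromosome, where 34.4% of tested genes fell, against 14.5% on the other chromosomes. The part of the neuronal markers and of X linkage in the falls of these tubulin genes was not tested.

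Other centrosome genes were called in both directions. Of 20 tested partner genes (1 further listed gene, zyg-12, had no match), 4 rose, 2 fell and 14 did not pass, with a median log2 ratio of 0.36. These shares (20% rose and 10% fell) are near the 20.1% and 11.6% over all tested genes at 10 FPKM or more. Of the 20 genes, 4 lie in crowded loci and were not called, among them mzt-1 with a ratio of 1.62. rsa-1, which encodes a phosphatase regulatory subunit of the centrosome, was 1.90-fold higher, from 59.5 to 113.0 FPKM (q = 0.000318 in the authors' deposited table). gip-2 and gip-1, which encode the partners of gamma-tubulin in its complex, were 1.66-fold and 1.56-fold higher, with q = 0.00545 and 0.0480 in the authors' deposited table. tbg-1 was 1.00 times gip-2 in the control and 0.984 times in sig-7 RNAi, and 1.64 and 1.71 times gip-1. Whether these proportions changed was not tested, since the pooled values carry no spread. sas-1, a centriole stability gene, rose 1.52-fold (q = 0.0321 in the authors' deposited table). At equal total FPKM, rsa-1 kept a positive log2 ratio of 0.17, while gip-2, gip-1 and sas-1 turned to -0.025, -0.12 and -0.15.

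The 2 partner genes that fell encode RNA-binding proteins that limit ZYG-1 in the embryo. atx-2, the ataxin-2 gene, went from 50.4 to 18.8 FPKM, 2.69-fold lower (q = 1.24e-09 in the authors' deposited table). szy-20 went from 22.9 to 13.2 FPKM, 1.74-fold lower, with q = 0.0123 in the authors' deposited table. sas-5, which encodes the binding partner of SAS-6, was at 42.9 and 55.6 FPKM and did not pass (q = 0.249 in the authors' deposited table). sas-6 relative to sas-5 went from 0.849 to 1.18.

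Genes that fold tubulin were called in the upward direction only. Of 11 tested genes of tubulin cofactors and of prefoldin, the chaperone that hands new actin and tubulin chains to the chaperonin, 6 rose and 0 fell, with a median log2 ratio of 0.64. Among all tested genes at 10 FPKM or more, rises also outnumbered falls, at 20.1% against 11.6%, and 54.5% of this list rose. The difference between the list and those genes was not tested. pfd-6 and pfd-4 were 2.18-fold and 1.95-fold higher, from control values of 124.0 and 115.7 FPKM. evl-20, the ARL2 gene, was 1.85-fold and tbcb-1, the cofactor B gene, 1.79-fold higher, and the largest q among these 4 was 0.0188 in the authors' deposited table. At equal total FPKM the medians of the folding list and of the partner list turned below 0, to -0.11 and -0.38.

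Motors and other microtubule regulators were mostly uncalled. Of 26 tested, 2 rose (7.69%) and 3 fell (11.5%), against 20.1% and 11.6% of all tested genes at 10 FPKM or more. Their median log2 ratio of 0.29 is close to the 0.28 of those genes. unc-116, the kinesin heavy chain gene, went from 48.0 to 14.2 FPKM, 3.37-fold lower (q = 1.23e-13 in the authors' deposited table). cls-2, a CLASP gene, and zyg-8, a doublecortin-like kinase gene, were 1.69-fold and 1.63-fold lower, with q = 0.00639 and 0.0459 in the authors' deposited table. zen-4, a kinesin gene of cytokinesis, was 1.42-fold higher and klp-16, a minus-end kinesin gene with a near-identical copy in klp-15, 1.54-fold higher (q = 0.0464 and 0.0495 in the authors' deposited table). At equal total FPKM both turned below 0, to -0.25 and -0.13. Of these 26 genes 8 lie in crowded loci, and none of the 8 was called.

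Of 3 tested actin genes, of the other main cytoskeletal polymer, 1 fell (33.3%) and 0 rose, against 17.3% and 11.2% of all tested genes. act-2, the abundant actin gene here, was at 361.2 and 495.5 FPKM (q = 0.0777 in the authors' deposited table). act-4 fell 3.01-fold, from 75.8 to 25.2 FPKM, with q = 3.11e-10 in the authors' deposited table. It lies on the X chromosome, where 34.4% of tested genes fell, and the part of X linkage was not tested. act-5, of the intestine, was at 5.77 and 0.738 FPKM in a crowded locus and did not pass (q = 0.950 in the authors' deposited table). The difference between tubulin and actin genes was not tested, and tbb-2 was 1.99 times act-2 in the control and 2.61 times in sig-7 RNAi. act-1 and act-3 were not tested and lay under 0.13 FPKM, and actin genes have near-identical copies, so how their reads were divided is uncertain.

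**Figure D3:**
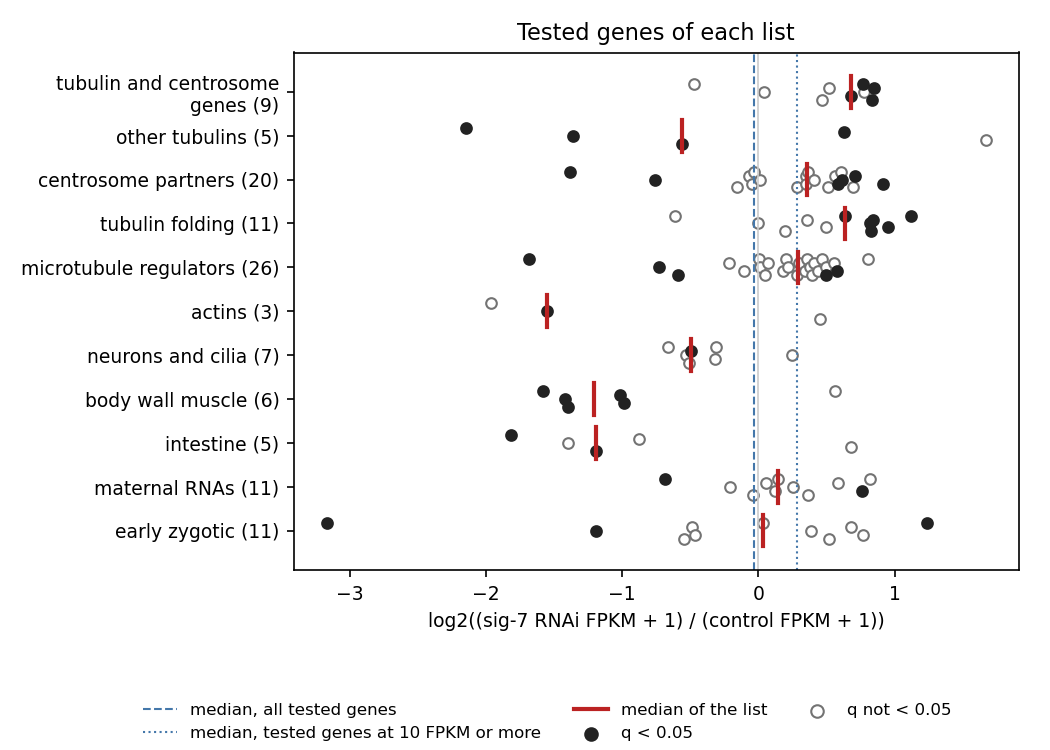
log2((sig-7 RNAi FPKM + 1) / (control FPKM + 1)) of the tested genes of each list (points, filled where q was under 0.05; the number tested in brackets), with list medians (red) and the medians of all tested genes (dashed) and of those at 10 FPKM or more (dotted). The members and the tubulin folding genes have medians of 0.68 and 0.64, while the tested genes of the other tubulins, actins, neurons, muscle and intestine have medians below 0.

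The groups also differed in markers of muscle and intestine, whose part in the results on the members was not tested. Of 6 body wall muscle markers, 5 fell (83.3%) and 0 rose, against 17.3% and 11.2% of all tested genes. Their summed FPKM was 35.4 in the control and 28.1 in sig-7 RNAi, with a median log2 ratio of -1.21. Most of the sum in sig-7 RNAi came from hlh-1, which went the other way, from 14.9 to 22.4 FPKM. It did not pass the test (q = 0.0885 in the authors' deposited table). The largest falls were those of lev-11, a tropomyosin gene, from 3.75 to 0.586 FPKM, and unc-27, a troponin gene, from 3.33 to 0.646 FPKM. unc-54, a myosin gene, went from 4.99 to 1.24 FPKM and unc-15, the paramyosin gene, from 3.54 to 1.29 FPKM. Of 5 intestinal genes, 2 fell (elt-2 and end-1) and 0 rose, with summed FPKM of 34.5 and 17.1 and a median of -1.20. The share that fell was 40%, against 17.3% of all tested genes. In the same list end-3 was higher by value, from 3.13 to 5.63 FPKM, and did not pass (q = 0.105 in the authors' deposited table). ges-1, from 1.70 to 0.0273 FPKM, lies in a crowded locus of 141 rows and did not pass. Both end-1 and end-3 are also counted with the early zygotic genes below. Maternal RNAs had 1 rise (nos-2) and 1 fall (skn-1) among 11 tested genes, with summed FPKM of 796.1 and 1007 and a median of 0.14. These shares of 9.09% each stand against 11.2% and 17.3% of all tested genes, and 20.1% and 11.6% of those at 10 FPKM or more. Of these genes 4 lie in crowded loci, and none of the 4 was called. The largest gain by value was that of pos-1, from 274.2 to 411.9 FPKM, which lies in a crowded locus and did not pass. Of 11 early zygotic genes, 1 rose (med-2) and 2 fell (sdz-28 and end-1), with summed FPKM of 258.9 and 150.7 and a median of 0.036. These shares, 9.09% and 18.2%, are near the 11.2% and 17.3% of all tested genes. Most of the drop in the sum came from sdz-28, which went from 99.5 to 10.2 FPKM. In this list 3 genes lie in crowded loci, and none of the 3 was called. Yolk and sperm genes, as marks of maternal tissue, were not tested, and the highest of the 11 found was at 0.159 FPKM, with 4 of them listed at 0 in both groups.

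**Figure D4:**
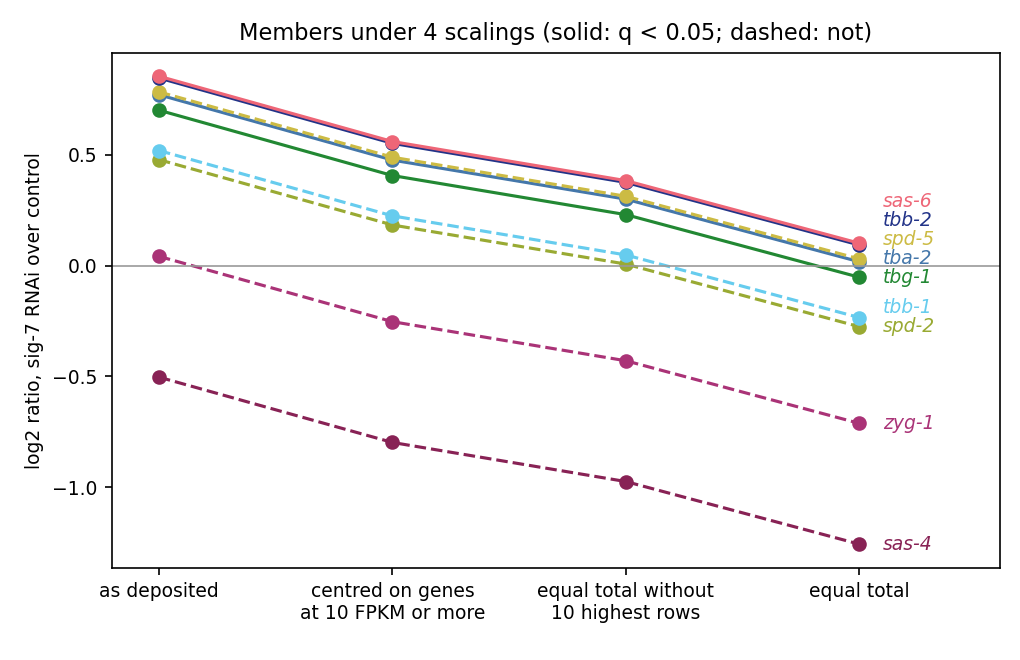
log2 ratio of the 9 members (lines; solid where q was under 0.05) as deposited, centred on the median of tested genes at 10 FPKM or more, and with both groups scaled to equal total FPKM without and with the 10 highest rows. sas-6 goes from 0.85 to 0.10 and sas-4 from -0.50 to -1.26, and the distances between members stay the same.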

How the data were processed

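Stranded libraries were made from 1 µg of total RNA after removal of ribosomal RNA, per the labels' protocols. Per the submitters' processing notes, the build was ce10 and the tools included TopHat2, Cufflinks 2.1.1 and Cuffdiff 2.0.2. Not given in the sources used here are the annotation, the parameters and whether strand was used. The authors deposited FPKM values pooled per group, with a p-value and q-value for each of 37812 genes, 44542 isoforms and 38916 TSS groups. The deposited log2 ratio equalled that of the FPKM values to within 1.43e-05, and rows listed at 0 in 1 group got no fold here. With no values per library, the depth per sample is unknown, and no test of replicate spread beyond the deposited q was run. Calls used q under 0.05. Loci, counted from base 0 in the tables, are given from base 1, and members were matched by exact name. For the other lists, sequence names from the RefSeq gene table of WBcel235 were also accepted. List medians used a pseudocount of 1 FPKM, which understates changes of low genes. The members and lists were chosen with earlier results of these data known, so the counts describe them. Named genes were all members and other tubulins, and up to 4 called genes per direction with the largest ratios in each other list. Some others were named after their values were seen. The counting steps were tested on simulated data. Alternatives were a stricter q, a floor of 1 FPKM, other pseudocounts, other scalings and the other tables. Python 3.11.15, pandas 2.3.3 and Matplotlib 3.10.9 were used.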

Additional observations from a re-analysis of the deposited data

How the results depend on the processing

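No paired analysis was possible because the deposited values are pooled per group, and for the same reason no replicate could be left out. Among the members, the 4 rises became 3 at q under 0.01, where tbg-1 was lost, and 3 kept a positive sign at equal total FPKM. All 4 kept it with totals that leave out the 10 highest rows. The floor of 1 FPKM and the removal of crowded loci could remove none of the 4. No member was under 11.5 FPKM, and no member in a crowded locus was called. The isoform and TSS group tables also gave 4 rises, but they hold the same FPKM values for the members. The count of falls was 0 at the main setting, and the other settings within the gene table could only leave it at 0. It was also 0 in the isoform and TSS group tables. The members' median log2 ratio of 0.68 was 0.70 with a pseudocount of 0.1 FPKM and with none, 0.71 centred on all tested genes, 0.40 centred on those at 10 FPKM or more, 0.22 at equal total without the 10 highest rows, and it reversed to -0.051 at equal total. At equal total FPKM the log2 ratio reversed for tbb-1 (-0.24), tbg-1 (-0.053), spd-2 (-0.28) and zyg-1 (-0.71); zyg-1 also reversed without the 10 highest rows (-0.43) and centred on genes at 10 FPKM or more (-0.25). The reversals follow from the common shift that each scaling subtracts.

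For the other lists, alternatives were chosen after seeing the data. At q under 0.01, the rises became 0 for the other tubulins, 2 for the centrosome partners, 0 for the microtubule regulators and 0 for the early zygotic genes, and the falls became 1 for the partners and 0 for the maternal RNAs; folding rises went from 6 to 4, and falls of the other tubulins and of the microtubule regulators from 3 to 2 each. With a floor of 1 FPKM in both groups, the other tubulins kept 0 rises and 0 falls, the neuronal markers 0 falls and the muscle markers 3. At equal total FPKM, 1 of the partner rises and 0 of the microtubule regulator rises kept their sign. Medians at equal total were -0.68 for the other tubulins, -2.24 for the actins, -0.54 for neurons and cilia, -1.56 for muscle and -1.49 for intestine, and reversed to -0.38 for the partners, -0.11 for folding, -0.41 for the microtubule regulators, -0.59 for maternal RNAs and -0.70 for early zygotic genes. The pooled values limit all statements on error.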
